A study of Homo sapiens with 21 samples.

Results

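The cytosolic ribosomal protein genes code for the proteins of the ribosome that works outside the mitochondria. Members were taken by gene symbol: RPL or RPS followed by a number with an optional A or X, RPLP0 to RPLP2, RPSA and FAU. The rule found 78 members among the 37637 features of the table, of which 24852 carry a symbol: 43 genes of the large subunit outside its stalk, 3 genes of the stalk and 32 genes of the small subunit. All 78 passed the filter on low counts, which 17951 features passed. The cells were HepG2, an established human hepatocellular carcinoma line, kept for 24 h in serum-free DMEM. The control group had no caffeine, and the other 6 groups had caffeine at 0.01, 0.1, 1, 10, 100 or 1000 µM in the same medium. Each group had 3 replicate libraries of poly(dT)-purified RNA, 21 in all, and every group lacked serum, so no group shows these genes in growing, serum-fed cells.

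Each ribosomal protein sits at a fixed place in the large or small subunit, mostly in a single copy, so the cell needs the proteins in near-equal numbers. Their messages are short and very abundant, and most begin with a C followed by a run of pyrimidines, the 5′ terminal oligopyrimidine (TOP) motif. Through the TOP motif the kinase mTOR and the RNA-binding protein LARP1 set how fast these messages are translated and how stable they are when nutrients or growth factors are scarce. The genes have also left many processed pseudogenes in the human genome, copies of the message without introns, which can take or give reads in an alignment.

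The transcription start windows show the shared motif and some members without it at the listed start. RefSeq start sites (GRCh38.p14) were matched by symbol, and 63 of the 78 members, with 78 starts, are used here. Member starts on a chromosome that is not reported here were left out, while the figures over all genes include it. Each window below holds 10 bases before the start and 20 from it, and capitals mark a pyrimidine run that starts with C at the first transcribed base and has at least 4 more pyrimidines. The first 8 genes were chosen as members that the results turn on and that have the run. The last 4 lack it at the listed start, and were chosen as members that the results turn on or that varied least.
RPLP0, chr12:120201092-120201121, minus strand: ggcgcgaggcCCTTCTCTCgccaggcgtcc
RPLP1, chr15:69452808-69452837, plus strand: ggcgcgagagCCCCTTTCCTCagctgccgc
RPLP2, chr11:809957-809986, plus strand: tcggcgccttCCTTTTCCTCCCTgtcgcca
RPL34, chr4:108620566-108620595, plus strand: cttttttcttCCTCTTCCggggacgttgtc
RPL36A, chrX:101391001-101391030, plus strand: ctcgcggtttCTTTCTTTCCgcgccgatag
RPS6, chr9:19380217-19380246, minus strand: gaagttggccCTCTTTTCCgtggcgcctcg
RPS19, chr19:41860245-41860274, plus strand: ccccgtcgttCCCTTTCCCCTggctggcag
RPS27A, chr2:55232678-55232707, plus strand: ggcgttcttcCTTTTCgatccgccatctgc
RPS26, chr12:56041908-56041937, plus strand: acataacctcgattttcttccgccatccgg
RPS28, chr19:8321486-8321515, plus strand: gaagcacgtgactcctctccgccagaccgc
RPS29, chr14:49598691-49598720, minus strand: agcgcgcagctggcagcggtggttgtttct
RPL4, chr15:66504836-66504865, minus strand: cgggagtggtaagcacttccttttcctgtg
Such a run, C and at least 4 pyrimidines read on the gene's own strand, was present at a start of 47 of the 63 members (74.6%), against 1404 of all 27305 genes with a start in the same table (5.14%). The runs were 5 to 19 bases long, with a median of 8. RPS26, RPS28 and RPL4 show pyrimidines a few bases downstream of the listed start, where the rule does not count them. RPL10A, not printed above, does so too. A member without a counted run can thus still carry a pyrimidine run near its start. A run is a description of these letters only, and none was shown to act in these cells.

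Total counts per library ran from 23502519 to 44815552. The 21 libraries fell into 3 sets when clustered on their 13 mitochondrial mRNAs, and the sets follow the dose only in part. The 11 libraries of set A comprised the control, 0.01 and 0.1 µM groups and 2 of the 1 µM libraries (replicates 1 and 2). The third 1 µM library belonged to set B, which has 7 members, together with the 10 µM group, 1 library of 100 µM (replicate 2) and 2 of 1000 µM (replicates 1 and 2). The 3 remaining libraries made up set C, 2 of them from 100 µM (replicates 1 and 3) and the other from 1000 µM (replicate 3). Mitochondrial mRNA was 9.95 to 14.2% of all counts in the first of these sets, fell between 4.72 and 4.94% in the second, and reached 11.8 to 12.8% in the third. The labels name no batch, the sets were drawn from the data and are not the study's groups, and what they are was not tested. Set A libraries are the only ones at and below 0.1 µM and none lies at 10 µM or above, so across that step only the divided 1 µM group separates dose from set. At 1, 100 and 1000 µM the replicates of a dose divide between sets, which lets the set enter the fit as a term. Sets A and B share only the 1 µM dose, so with the term each contrast of 10 µM or above with the control, and each difference of set B or C from set A, rests on replicate 3 of 1 µM. That single library is assumed to vary like those of the other groups. All 10 hepatocyte markers passed the filter, among them AFP at 5365 ± 831 CPM (counts scaled to library size) in the control (SD, n = 3). At 1000 µM 2 of the 10 were higher and 6 lower than in the control, where 28.5% of all features were higher and 29.1% lower. Of 8 markers of other cell types 2 passed, CD68 and ACTA2, and both were lower at 1000 µM. Those 8 summed to between 75.6 and 103 CPM over set A, 33.9 and 84.8 over set B, and 70.4 and 123 over set C, with KRT5 at 0 in every library and PTPRC at most 1 count. Their part in the results was not tested.

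The family as a whole took a slightly larger mean share of all counts at the higher doses, though not one that passed a test. Its share was 3.90, 4.12 and 4.52% in the control libraries, 4.18% ± 0.31 on average (SD, n = 3). At 10 µM it was 4.79% ± 0.28, at 100 µM 5.12% ± 0.38 and at 1000 µM 5.13% ± 0.20 (n = 3 each). The 3 libraries at 100 µM and the 3 at 1000 µM all lay above the 3 controls, whereas 10 µM overlapped them, its lowest library being at 4.47%. The exact 2-sided permutation test gave p = 0.1 at 100 and 1000 µM, the smallest value that 3 against 3 allows, and 0.3 after adjustment over the 6 doses. At 1 µM replicates 1 and 2 (4.96 and 4.21%) and replicate 3 (5.24%) came from different sets, and at 0.01 and 0.1 µM the means were 4.15 and 4.03%. Set A spanned 3.77 to 4.96%, set B 4.47 to 5.24% and set C 5.18 to 5.46%. The mitochondrial share differs between sets, so the family was also taken as a share of nuclear counts: 4.78% ± 0.45 in the control, 5.04% ± 0.29 at 10 µM, 5.71% ± 0.69 at 100 µM and 5.54% ± 0.46 at 1000 µM (n = 3 each). On that base all 3 doses overlapped the control (exact permutation p = 0.6, 0.2 and 0.2). In bulk RNA a share cannot tell more cells with these messages from more message per cell.

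**Figure D1:**
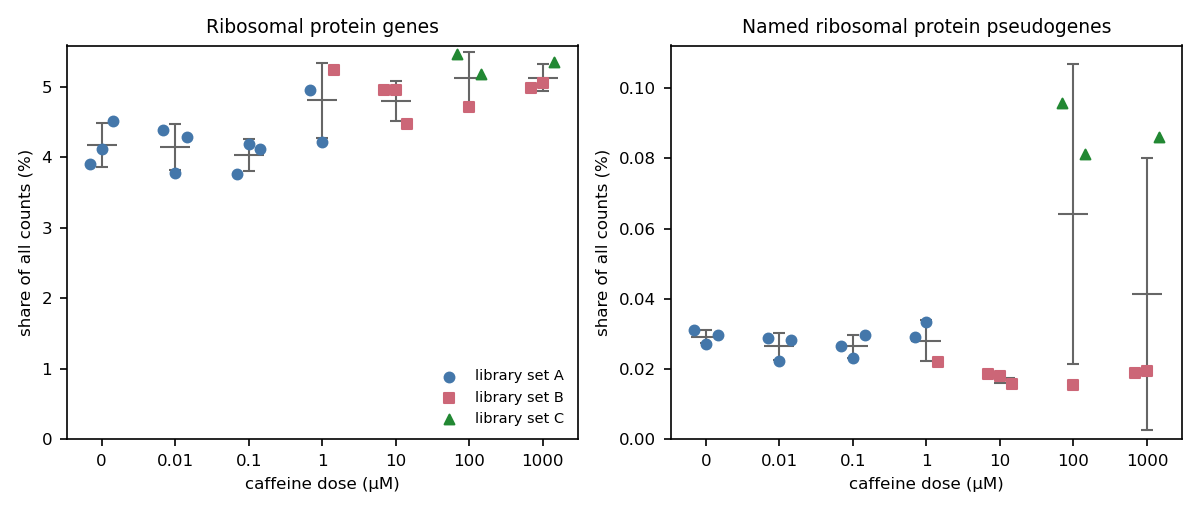
Share of all counts (%) in the 78 ribosomal protein genes (left) and in their named pseudogenes (right), by caffeine dose in µM. Each point is a library, coloured by library set, and the horizontal mark and bars are the mean and SD of 3 libraries; the gene share at 100 and 1000 µM lies above the 3.90 to 4.52% of the controls, and the pseudogene share of 0.0812 to 0.0958% is found in the 3 set C libraries only.

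The stalk is the arm of the large subunit that recruits the translation factors, built from RPLP0 and dimers of RPLP1 and RPLP2. Levels are CPM with TMM-scaled library sizes, and differences are log2 fold changes from a fit over all 21 libraries, called where the Benjamini-Hochberg adjusted p over all 17951 features is under 0.05. In these libraries RPLP1 and RPLP2 differed together between dose groups while RPLP0 did not follow them. RPLP1 stood at 203, 192 and 202 CPM in the control libraries, at 604.5, 613.5 and 580 at 10 µM, at 507, 634 and 466 at 100 µM and at 591, 632 and 503 at 1000 µM. All 9 libraries at 10 µM and above were higher than every library at 0.1 µM and below, whose highest value was 208. The log2 difference from the control was 1.59 ± 0.35 at 10 µM (SE, edgeR quasi-likelihood test, adjusted p = 0.01005), 1.43 ± 0.35 at 100 µM (adjusted p = 0.003611) and 1.53 ± 0.35 at 1000 µM (adjusted p = 0.001523). At 1 µM, however, replicates 1 and 2 read 200.5 and 181 CPM and replicate 3 read 636. The same dose thus gave the level of the controls and the level of 10 µM, and which one followed the library set.

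RPLP2 stood high in the same libraries. It read 191, 206 and 170 CPM in the control, 355, 343 and 312 at 10 µM, 378, 333 and 371 at 100 µM and 347, 338 and 358 at 1000 µM, with no overlap between the control and any of these doses. The difference was 0.83 ± 0.19 at 10 µM (edgeR adjusted p = 0.01013), 0.93 ± 0.19 at 100 µM and 0.88 ± 0.19 at 1000 µM. At 1 µM the values were 211, 171 and 386. RPLP0 lay at 2396, 2453 and 2243 CPM in the control and at 1949, 2024 and 1796 at 1000 µM, a difference of -0.30 ± 0.09 (edgeR adjusted p = 0.00883). It did not pass the test at 10 µM (0.03 ± 0.09) or 100 µM (-0.20 ± 0.09). With the set as a term no stalk gene passed at any dose: at 1000 µM RPLP1 had -0.10 ± 0.26, RPLP2 -0.18 ± 0.16 and RPLP0 -0.20 ± 0.14. RPLP1 was 1.74 ± 0.205 and RPLP2 1.02 ± 0.13 higher in set B than in set A in that fit (edgeR adjusted p = 0.0001749 and 0.0002059), a difference that rests on the single set B library at 1 µM.

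**Figure D2:**
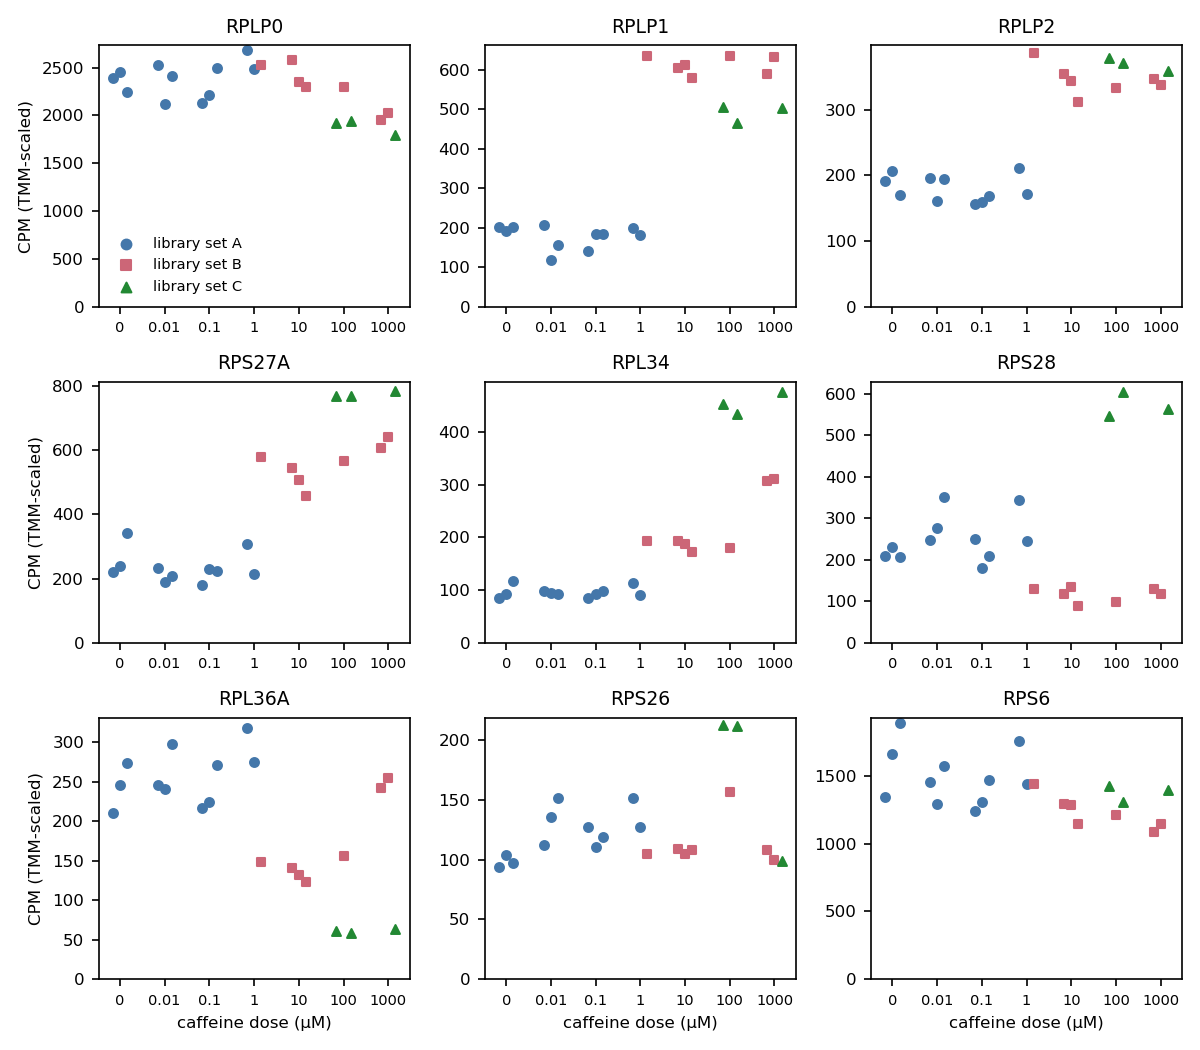
Level (CPM, TMM-scaled, linear axis from 0) of 9 ribosomal protein genes by caffeine dose in µM, with each of the 3 libraries of a dose as a point coloured and shaped by library set. RPLP1, RPLP2, RPS27A and RPL34 are low in every set A library and higher in sets B and C, also at 1 µM where replicate 3 is in set B; RPS26 is highest at 100 µM in both sets measured there.

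At 10 µM 15 of the 78 members passed the test against the control (19.2%), against 14.8% of all 17951 features. Of these 12 were higher and 3 lower, where 7.27% of all features were higher and 7.49% lower. The median log2 difference over the members was 0.12, against 0.00 over all features. The 12 were RPLP1, RPLP2, RPS19, RPS27A, RPS12, RPL9, RPL36, RPL13, FAU, RPSA, RPS7 and RPL3, and the lower ones included RPL7A and RPS6. With the set as a term none passed by edgeR, where 0.0279% of all features passed, 0.0111% higher and 0.0167% lower, and 3 members had an unadjusted p under 0.05, against 4.94% of all features. In that fit RPS19 had 0.05 ± 0.21, FAU 0.01 ± 0.16, RPSA 0.10 ± 0.15 and RPL7A -0.02 ± 0.16, and RPLP1, RPLP2, RPS27A, RPS12, RPL9 and RPL36 turned to the other sign. The 10 µM group lies wholly in set B and the control in set A, and 1 µM is the only dose at which those sets meet. The count at 10 µM was 8 without replicate 1 of the control, 7 without its replicate 2, 4, 4 and 9 without replicates 1, 2 and 3 of 10 µM, and 23 without replicate 3 of 1000 µM, whose spread enters the same fit. The share of all features called at 10 µM also moved with the library left out, from 5.63 to 19.1%.

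At 100 µM 38 members passed (48.7%), against 46.6% of all features. The direction was uneven: 35 members were higher and 3 lower, where 23.6% of all features were higher and 22.9% lower, and the median was 0.36 against -0.01. Both subunits had calls, with 19 of 43 large subunit genes, 14 of 32 small subunit genes and 2 of 3 stalk genes higher. After RPL34, RPLP1 and RPS27A the largest were RPS21 (1.31 ± 0.38), RPS12 (1.23 ± 0.27) and RPL36 (1.21 ± 0.18). With the set term none of these 6 passed: RPS21 had -0.67 ± 0.30 and RPS12 -0.28 ± 0.25, of the opposite sign, RPL36 had 0.23 ± 0.23, RPL34 0.19 ± 0.24, RPLP1 -0.10 ± 0.27 and RPS27A -0.02 ± 0.29. At 1000 µM 45 members passed (57.7%), against 57.6% of all features, 38 higher and 7 lower where 28.5 and 29.1% of all features were higher and lower, with a median of 0.38 against -0.01. The share of members called was near that of all features at both doses, while most member calls were upward. With the set term 16 of the 38 members called at 100 µM and 8 of the 45 at 1000 µM had the opposite sign. With the set as a term 1 member passed at 100 µM, RPS26, which was higher (17.3% of all features passed, 9.14% higher and 8.21% lower), and 10 at 1000 µM, 9 higher and 1 lower (38% of all features, 18.2% higher and 19.8% lower), with medians of 0.01 and 0.06.

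**Figure D3:**
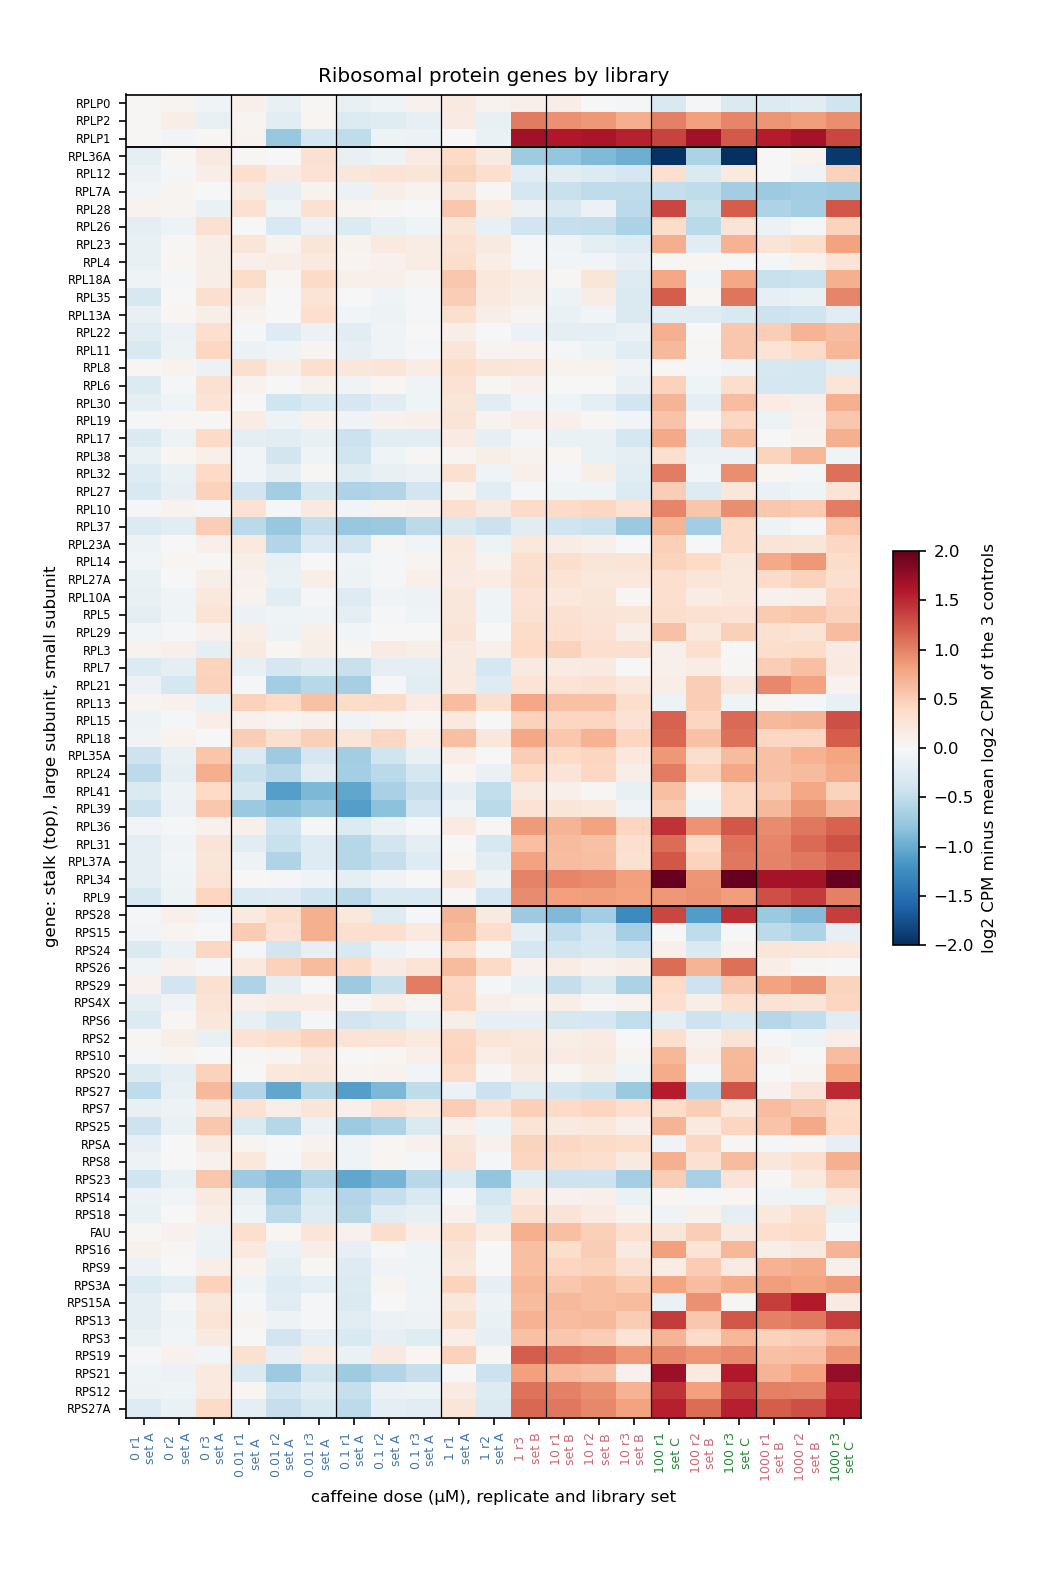
Level of each member named on the rows, nearly the whole family, in each of the 21 libraries, as log2 CPM minus the mean log2 CPM of the 3 controls (colour scale from -2 to 2, values beyond it shown at its end). Columns run by dose in µM and replicate with the library set written under each, rows by stalk, large and small subunit; replicate 3 of 1 µM resembles the 10 µM columns beside it, and replicates 1 and 3 of 100 µM resemble replicate 3 of 1000 µM.

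Among large subunit genes, RPL34 had the largest rise at 100 and 1000 µM. Its 3 control libraries held 85.9, 92.1 and 117 CPM. The 10 µM libraries held 193, 187 and 173, the 100 µM libraries 454, 180 and 435, and the 1000 µM libraries 308, 310 and 476. Each dose from 10 µM up was clear of the control, but within 100 µM the set C libraries were more than 2-fold above the set B library. The log2 difference at 1000 µM was 1.89 ± 0.30 (edgeR adjusted p = 5.4e-05) and with the set term 0.63 ± 0.23 (adjusted p = 0.03622), so the call held at a smaller size. RPL9, of low level, differed from the control by 1.21 ± 0.23 at 1000 µM, and RPL37A and RPL31 by 1.07 and 1.12. These calls were lost with the set term, where the differences were 0.18 ± 0.25, 0.05 ± 0.27 and 0.21 ± 0.25 (adjusted p = 0.6251, 0.9214 and 0.5424).

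The large subunit genes with well-known roles differed less. RPL5 and RPL11, which carry the 5S rRNA into the subunit and bind MDM2 when ribosome assembly fails, were higher at 1000 µM by 0.49 ± 0.11 and 0.42 ± 0.16 (edgeR adjusted p = 0.0005028 and 0.02851), and with the set term had 0.28 ± 0.18 and 0.35 ± 0.23, which did not pass. RPL11 overlapped the control, which held 814, 933 and 1334 CPM against 1219, 1316 and 1600. RPL10, which is added late and completes the subunit, was higher by 0.71 ± 0.13 at 1000 µM and by 0.42 ± 0.14 with the set term (adjusted p = 0.02147). RPL3, near the peptidyl transferase centre, was higher by 0.29 ± 0.10 (0.11 ± 0.14 with the set term, not passing), and RPL4, of the exit tunnel, had 0.10 ± 0.09 and did not pass at any dose. RPL4 also had the smallest spread of all members over the 21 libraries, an SD of 0.12 on the log2 scale, while RPLP1 had the largest, 0.90. RPL41 and RPL39, the latter also lining the exit tunnel, were higher at 1000 µM by 0.56 ± 0.22 and 0.68 ± 0.24 and had 0.03 ± 0.42 and 0.03 ± 0.43 with the set term.

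A smaller group of large subunit genes was lower. RPL7A held 1626, 1754 and 1699 CPM in the control and 1028, 1046 and 1029 at 1000 µM, with no overlap, a difference of -0.71 ± 0.12 (edgeR adjusted p = 3.341e-05). It was also lower at 10 µM (-0.49 ± 0.12) and 100 µM (-0.56 ± 0.12). None of these calls held with the set term, where the difference was -0.22 ± 0.16 at 1000 µM and -0.06 ± 0.17 at 100 µM. RPL13A, which can leave the ribosome to silence translation of inflammatory messages, was also lower at 1000 µM (-0.34 ± 0.10), as was RPL8 (-0.30 ± 0.08). Neither passed with the set term, at -0.20 ± 0.17 and -0.24 ± 0.13 (adjusted p = 0.3894 and 0.1511). Others called lower at that dose included RPLP0, RPS6 and RPS15, none of which passed with the set term (RPS15 then had 0.11 ± 0.18, of the opposite sign). The 7 large subunit genes that passed at 1000 µM with the set term were RPL10, RPL12, RPL14, RPL22, RPL23, RPL34 and RPL36A, all higher. RPL12 (0.15 ± 0.16) and RPL36A (-0.38 ± 0.44) had not passed without the term, and 7 of the 10 members called with it were called in both fits. RPL14 held 398, 426 and 421 CPM in the control and 699, 756 and 536 at 1000 µM, 0.56 ± 0.16 with the set term (adjusted p = 0.008961).

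Among small subunit genes RPS27A, made as a fusion with ubiquitin, had the largest rise at 100 and 1000 µM. It held 219, 240 and 340 CPM in the control, 543, 508 and 456 at 10 µM, 767.5, 566 and 767 at 100 µM, and 607, 640 and 782 at 1000 µM. No library of these 3 doses overlapped the control, and at 1 µM replicate 3 again stood apart, at 579 against 308 and 215. The difference was 0.92 ± 0.26, 1.39 ± 0.26 and 1.34 ± 0.26 at 10, 100 and 1000 µM (edgeR adjusted p = 0.0287, 0.0003999 and 0.0003418). With the set term it was 0.06 ± 0.28 at 1000 µM and did not pass. RPS19, mutated in Diamond-Blackfan anaemia, was higher by 1.00 ± 0.20 at 10 µM and 0.69 ± 0.20 at 1000 µM. It lost both calls with the set term, and its sign turned at 1000 µM (-0.32 ± 0.21, adjusted p = 0.2582). RPS3, at the mRNA entry channel, was higher by 0.53 ± 0.15 at 1000 µM, and had -0.15 ± 0.19 with the set term, which did not pass.

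Other small subunit genes were mixed. FAU, a fusion of a ubiquitin-like protein with RPS30, passed at 10 µM only (0.47 ± 0.14), as did RPSA, also known as the laminin receptor (0.38 ± 0.12). RPS6, the substrate of the S6 kinases, was lower at 10 µM (-0.395 ± 0.127) and at 1000 µM (-0.43 ± 0.13) (edgeR adjusted p = 0.04228 and 0.006625). Both calls were lost with the set term, at -0.24 ± 0.20 and -0.37 ± 0.20. Its control libraries were wide, at 1341, 1658 and 1887 CPM, and the 1000 µM library in set C, at 1395, lay among them while the other 2 were at 1084 and 1141. Among the small subunit genes that passed at 1000 µM with the set term were RPS15A (0.86 ± 0.21) and RPS7 (0.48 ± 0.17), both higher.

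At the 3 lowest doses no member passed the edgeR test. At 0.01 µM 0.0279% of all features passed, 0.00557% higher and 0.0223% lower, at 0.1 µM 0%, and at 1 µM 0.106%, 0.0111% higher and 0.0947% lower. An unadjusted p under 0.05 was found for 14, 15 and 15 of the 78 members at 0.01, 0.1 and 1 µM, against 15, 9.48 and 15.7% of all features. DESeq2's Wald test called 6, 0 and 5 members at these doses, against 2.15, 0.295 and 2.29% of all features. The limma-voom test called 0 members, against 0.0501, 0 and 0.15%. Leaving out replicate 2 of 1 µM gave 2 edgeR calls at 1 µM, and leaving out replicate 2 of 100 µM gave 1, while 0 to 0.647% of all features passed at 1 µM over the fits with 1 library left out. The median differences over the members were -0.06, -0.12 and 0.16, against -0.01, 0.00 and 0.01 over all features.

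With the set as a term 7 members passed at 0.01 µM, all higher, where 3.02% of all features passed, 0.841% higher and 2.18% lower: RPL8, RPL12, RPL13, RPL18, RPS2, RPS15 and RPS26. The control and 0.01 µM both lie in set A, so the term left these differences nearly unchanged and made the SE smaller. RPS15 had 0.51 ± 0.18 without the term and 0.51 ± 0.10 with it. RPL12 (0.38 ± 0.08) and RPS15 (0.51 ± 0.11) passed at 1 µM, where 0.629% of all features passed, 0.15% higher and 0.479% lower. None passed at 0.1 µM by edgeR, where 0.0223% of all features passed, 0.0111% in each direction, and 31 members had an unadjusted p under 0.05, against 15.4% of all features. Within set A alone no member passed at these doses by edgeR, where 0.104, 0 and 0% of all features passed. There 23, 24 and 20 members had an unadjusted p under 0.05 at the 3 doses, against 20.5, 12.6 and 14.9% of all features.

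The 1 µM group compares sets A and B at a fixed dose, without any library of the control or 10 µM groups. Replicate 3 minus the mean of replicates 1 and 2 gave 1.74 for RPLP1, 1.17 for RPS27A, 1.13 for RPS12, 1.10 for RPL9, 1.03 for RPS21 and 1.02 for RPLP2, all as differences of log2 CPM. On the other side RPS28 gave -1.16 and RPL36A -0.99. As plain differences with 1 library on a side these have no test. Over the 78 members this same-dose difference followed the difference between 10 µM and the control, which uses other libraries, with r = 0.89 and rho = 0.85, and 64 of 78 had the same sign. The points are genes of the same libraries and not independent. Among 3485 other features of the members' levels r was 0.84, so the likeness was not particular to the family. The members' same-dose differences were wider, however, with an SD of 0.51 against 0.29 in those features.

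**Figure D4:**
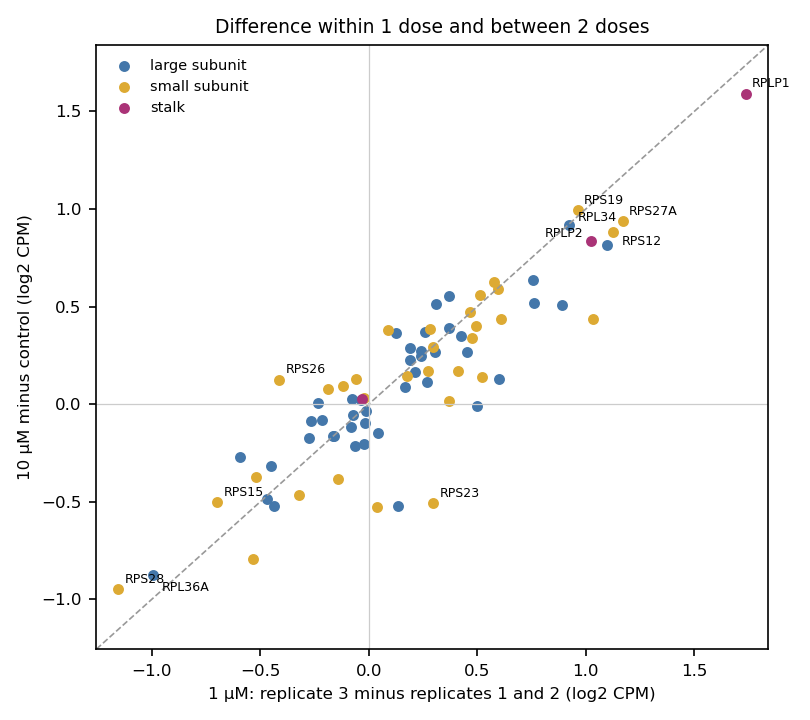
Difference of log2 CPM between replicate 3 and the mean of replicates 1 and 2 at 1 µM (x axis) against the difference between 10 µM and the control (y axis) for the 78 genes, coloured by place in the ribosome. The dashed line marks equal values; the points lie along it (r = 0.89), from RPS28 at the lower left to RPLP1 at the upper right.

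The test of the set within dose groups called 49 of the 78 members (62.8%), against 29.6% of all features. Set B was higher than set A for 17 members and lower for 5 (6.57% of all features called, 3.45% higher and 3.13% lower), and set C higher for 26 and lower for 1 (5.97% called, 3.36% higher and 2.61% lower). Apart from the stalk pair, set B was higher for RPS27A (1.15 ± 0.22), RPS12 (1.11 ± 0.18) and RPL9 (1.09 ± 0.20) and lower for RPS28 (-1.18 ± 0.27) and RPL36A (-0.998 ± 0.192). Set C was higher for RPS21 (2.25 ± 0.28), RPL34 (1.88 ± 0.23), RPL28 (1.34 ± 0.21) and RPS28 (1.18 ± 0.31), and lower for RPL36A (-2.67 ± 0.24). RPS28 thus had opposite differences in sets B and C. The differences from set A rest on replicate 3 of 1 µM, the library of the plain differences above, and are not a second measurement of them. This test and the choice of sets used different genes but the same libraries. Sets B and C could also be compared at 100 and at 1000 µM, with separate libraries. RPS28, at the mRNA exit site, was 2.53 higher in set C at 100 µM and 2.19 at 1000 µM on the log2 scale, RPS27 2.01 and 1.32, RPL28 1.725 and 1.89, and RPL36A gave -1.38 and -1.97. Over the members the 2 differences had r = 0.85 and rho = 0.78, and over 3485 other features of their levels r = 0.66.

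RPS28 shows how the sets bear on a dose comparison. Its libraries in set A held 180 to 352 CPM with a median of 246, those in set B 89.1 to 134 and those in set C 547 to 603.5, with no overlap between sets. At 100 µM the group, with libraries of sets B and C, held 417 ± 276 CPM (SD, n = 3), and the test gave 0.94 ± 0.61 (edgeR adjusted p = 0.2241). At 10 µM, all in set B, it gave -0.93 ± 0.61, and 0.25 ± 0.31 with the set term. Neither passed.

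The contrast of 1000 against 100 µM is less bound to the sets, since sets B and C have libraries at both doses. In the fit over all libraries 6 of the 78 members passed (7.69%), against 44% of all features, 2 higher and 4 lower, where 21.8% of all features were higher and 22.3% lower. The median was -0.05 against 0.00. With the set as a term 11 members passed (14.1%), 6 higher and 5 lower, against 46.3% of all features, 22.4% higher and 23.9% lower. Set C, with 2 libraries at 100 µM and 1 at 1000 µM, gave a narrow distribution: 76 of 78 members lay within 0.25 of 0 on the log2 scale, and the SD was 0.17, against 0.50 for 3485 other features of the members' levels. Set B, with 1 library at 100 µM and 2 at 1000 µM, was wider, at an SD of 0.36 against 0.61. The fit on set B alone called 39 of the 78 members (50%), 30 higher and 9 lower, against 51% of all 18323 features tested there, 23.2% higher and 27.8% lower. In that fit 1 library stands for 100 µM, and it is assumed to vary like the libraries of the other doses in the set. The count of 6 became 2 without replicate 3 of 100 µM or without replicate 1 or 2 of 1000 µM, 11 without replicate 2 of 100 µM and 21 without replicate 3 of 1000 µM, while the share of all features called ran from 34.3 to 50.7% over the fits with 1 library left out. Over the members the differences in sets B and C had r = 0.42, against 0.87 over the other features.

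RPS26, of the mRNA exit site, stood apart from the family in this contrast. Its libraries held 213, 157 and 212 CPM at 100 µM and 108, 99.6 and 99.4 at 1000 µM. The 3 values at 100 µM were the highest of all 21 libraries, the next being 152, while the control held 94.0, 104 and 97.2 and the 10 µM group 109, 105 and 108. No library at 100 µM overlapped any of these groups. The difference between 1000 and 100 µM was -0.92 ± 0.13 (edgeR adjusted p = 1.316e-05), -0.84 ± 0.12 with the set term and -0.63 ± 0.07 within set B alone, where 100 µM has 1 library. As differences of log2 CPM it was -1.095 in set C and -0.60 in set B, and over every alternative run for this contrast the fitted value lay between -1.05 and -0.63 and passed the test. Against the control it was 0.98 ± 0.13 at 100 µM, 1.26 ± 0.21 with the set term (adjusted p = 0.0003315). At 1000 µM it was 0.06 ± 0.13, and 0.41 ± 0.20 with the set term, and neither passed (adjusted p = 0.737 and 0.103). Of its 50-base stretches, 56.8% also occur in transcripts of other genes, 26 in all, so its counts can be split with them. Its 14 named pseudogenes held at most 4.01% of the reads of RPS26 and its pseudogenes together in any library. That share covers the named pseudogenes only. The part of read assignment in the RPS26 differences was not tested.

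**Figure D5:**
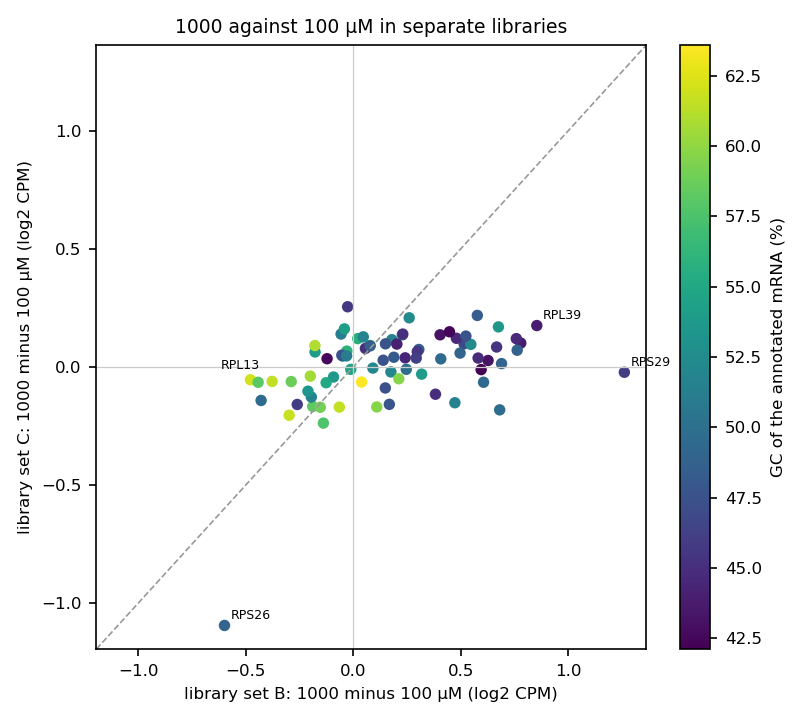
Difference of log2 CPM between 1000 and 100 µM for the 78 genes in library set B (x axis) and in library set C (y axis), which share no library, coloured by the GC content (%) of the annotated mRNA. In set C 76 of 78 genes lie within 0.25 of 0, in set B they spread from -0.60 to 1.26, and RPS26 is low in both.

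Other members that passed between 1000 and 100 µM included RPL8, RPL14, RPS2 and RPS15A. RPL8, near the peptidyl transferase centre, was lower (-0.27 ± 0.08) and passed also with the set term. RPS15A was higher by 0.82 ± 0.30 and by 0.40 ± 0.12 with the set term. At 100 µM its libraries held 49.55 and 55.5 CPM in set C and 103 in set B, and at 1000 µM 61.0 in set C and 143 and 164 in set B. Within each set RPS15A was higher at 1000 µM. RPL14 had 0.32 ± 0.11 and lost its call with the set term (0.22 ± 0.09, adjusted p = 0.06224), as did RPS2.

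Set B also has all of the 10 µM libraries, which allows 1000 against 10 µM within a set, a contrast added after the sets were seen. Without the set term 27 members passed, 22 higher and 5 lower (52.1% of all features, 26.1% higher and 26% lower). With it 30 passed, 21 higher and 9 lower (59.1% of all features, 29.2% higher and 29.9% lower), and 20 were called in both. Within set B alone 53 passed (67.9%), 39 higher and 14 lower, against 65.1% of all features, 31.5% higher and 33.6% lower. The median there was 0.14 against -0.02. The stalk pair that separated the sets had differences near 0 here: RPLP1 had -0.0042 ± 0.0532 and RPLP2 -0.0092 ± 0.0588, and RPLP0 was lower, -0.31 ± 0.06. RPS29, a zinc-binding protein of the small subunit head, gave 1.27 ± 0.09 (edgeR adjusted p = 1.786e-06), from 48.2, 55.1 and 43.4 CPM at 10 µM to 117 and 125 at 1000 µM, but set A already spanned 40.6 to 136. RPL36A was higher by 0.88 ± 0.06, RPS15A by 0.83 ± 0.06, RPL22 by 0.72 ± 0.06, RPL34 by 0.71 ± 0.06 and RPS27 by 0.66 ± 0.11. Among the lowest differences were those of RPL13 (-0.54 ± 0.07), RPS19 (-0.44 ± 0.06), RPSA (-0.43 ± 0.05) and RPL8 (-0.40 ± 0.06).

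Within set B the direction of this difference went with base composition. The 26 members of lowest GC content (42.1 to 47.6% of the annotated mRNA) had a median of 0.44 and 23 of them were above 0. The middle 26 had a median of 0.22, with 21 above 0, and the 26 of highest GC content (53.4 to 63.6%) a median of -0.10, with 7 above 0. Over the members r was -0.60 (rho = -0.60), and over 3414 other features of their levels -0.49. The same difference went also with the mean level over all libraries (r = -0.46, rho = -0.40). It went less with mRNA length (r = -0.12, rho = -0.24) and the share of 50-base stretches found in other genes (r = 0.07, rho = 0.06). In set C, between 1000 and 100 µM, the same groups had medians of 0.08, 0.04 and -0.05. For RPL37, RPL27A, RPL37A and RPS23 the mRNA chosen has 7686, 4916, 3647 and 3437 bases, so their GC content rests on the annotation. Base composition is a property shared by many genes, and its part in these differences was not tested.

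For a dose series from rank 0, the control, to rank 6, 1000 µM, 53 members had a slope that passed (67.9%), 46 rising and 7 falling, against 55.3% of all features, 29.6% rising and 25.7% falling. The steepest rises per dose step were RPL34 at 0.37 ± 0.04, RPLP1 at 0.35 ± 0.06 and RPS27A at 0.30 ± 0.04, and the steepest falls RPL36A at -0.16 ± 0.06, RPL7A at -0.14 ± 0.02 and RPS15 at -0.13 ± 0.04. With the set as a term none of these 53 passed. RPL12 alone passed in that fit, at 0.10 ± 0.02 (4.27% of all features, 3.12% rising and 1.15% falling), and without the term it had -0.01 ± 0.03 and did not pass. The joint test of the 6 doses called 60 members (73.6% of all features) and with the set term 32 (59.8%). For RPL34 the group means were 98.4, 95.2 and 92.6 CPM from 0 to 0.1 µM, 133 at 1 µM, where the replicates divide between sets, and 184, 356 and 365 at 10, 100 and 1000 µM. Between 1000 and 10 µM it passed with 0.98 ± 0.30 (edgeR adjusted p = 0.01055) and with the set term at 0.64 ± 0.13.

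The share of reads in named pseudogenes was largest for RPL36A, in set C. The table names 832 ribosomal protein pseudogenes, 735 with at least 1 count, and 75 of the 78 members have at least 1. Together they held 0.0221 to 0.0332% of the counts of set A libraries, at most 0.0219% in set B, and from 0.0812 up to 0.0958% in set C. Of the 61 that passed the filter, 24 were higher in all set C libraries than in all set A libraries and 6 lower. For 69 of the 75 members the named pseudogenes held under 5% of the reads of gene and pseudogenes together in every library. The 6 others were RPL21, RPL23A, RPL36A, RPS2, RPS28 and RPSA. The 3 pseudogenes of highest mean level were RPL36AP37, RPS2P5 and RPL23AP42, at 101, 61.8 and 41.1 CPM. RPS2P5 held 143 to 173 CPM in set C and at most 61.2 in the other sets, whereas RPL23AP42 was highest in set A, at up to 132.5 CPM, and at most 0.496 in set B.

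RPL36A, which touches the exit-site tRNA, was called lower at 100 µM (-1.40 ± 0.45, edgeR adjusted p = 0.018), from 211, 245.5 and 274 CPM in the control to 61.5, 156 and 58.3. Its pseudogene RPL36AP37 held 30.5, 49.5 and 74.2 CPM in the control libraries and 461, 35.5 and 409 in those at 100 µM. In the 3 set C libraries, pseudogenes held 87.5 to 88.2% of the reads of RPL36A and its 25 named pseudogenes, against 11.8 to 21.4% in set A and 17.9 to 21.95% in set B. The sum of gene and pseudogenes was 241.5, 295 and 348 CPM in the control, 172, 162 and 153 at 10 µM, 523, 192 and 467 at 100 µM and 303, 326.5 and 534 at 1000 µM. At 100 µM the sum was thus above the control in the set C libraries and below it in the set B library, while the gene alone was below it in all 3. RPL36A shares 80.3% of its 50-base stretches with transcripts of other genes. With the set term the difference at 100 µM was 0.55 ± 0.24, of the opposite sign, and did not pass (adjusted p = 0.1291). At 1000 µM RPL36A had -0.38 ± 0.44 without the set term, which did not pass (adjusted p = 0.475), and was called higher with it (0.94 ± 0.23). Within set B the gene went from 141, 132 and 123 CPM at 10 µM to 242 and 255 at 1000 µM. The part of the pseudogenes in these values was not tested.

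The other 5 had smaller pseudogene shares than RPL36A in set C. Pseudogenes of RPSA held at most 1.46% in sets A and B and 8.21 to 13.5% in set C, and those of RPS2 7.15 to 7.41% in set C. Those of RPL21 ran from 6.90 to 29.4% over set A, from 0.538 to 6.09% over set B and from 21.6 to 26.6% over set C. Those of RPL23A reached 20.6% in set A and at most 3.5% in set B, and those of RPS28 at most 5.58% in any library. For RPLP1, RPL34 and RPS19 the named pseudogenes held at most 0.0568, 0.0435 and 0.014% in set C. The way the reads were assigned is not given in the sources used here, and the part of read assignment in the set differences was not tested.

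Levels between genes are compared per kb of annotated mRNA (the shortest principal coding transcript of GENCODE 29). RPS2, RPS24 and RPLP0 were highest, at 1977, 1923 and 1870 CPM per kb averaged over the 21 libraries. RPL9 had 86.0 CPM per kb and RPS15A 136. RPL37 and RPL37A came out at 37.3 and 106 CPM per kb with transcripts of 7686 and 3647 bases chosen for them, so their place at the low end rests on the annotation. Of the 50-base stretches of RPL9, 87.3% occur in transcripts of other genes, so its place is uncertain too. The summed counts of the small subunit genes, divided by those of the large subunit with its stalk, gave 0.549 to 0.599 over set A, 0.5655 to 0.598 over set B and 0.597 to 0.620 over set C.

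Members with and without the pyrimidine run at the listed start were set side by side. At 1 µM the difference between replicate 3 and replicates 1 and 2 had a median of 0.31 in the 47 members with a run. It was -0.03 in the 16 with a listed start but no run and 0.13 in the 15 without a start used here. The difference between 10 µM and the control had medians of 0.26, -0.01 and 0.09. Between 1000 and 10 µM within set B they were 0.26, 0.07 and 0.16, and between 1000 and 100 µM within set C 0.03, 0.07 and 0.03. Between 1000 and 100 µM within set B the medians were 0.18, 0.06 and 0.23. In other differences the members with a run had no higher median than those with a start but no run: set C minus set B had medians of 0.39, 0.47 and 0.42 at 100 µM and 0.17, 0.35 and 0.51 at 1000 µM, and 1 µM minus the control within set A had 0.09, 0.16 and 0.07. The groups were formed by sequence and the medians are a description without a test.

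Related gene lists were read beside the family, each with its own count. Over all features 23.6% were higher and 22.9% lower at 100 µM, and 28.5% higher and 29.1% lower at 1000 µM. With the set term these shares were 9.14 and 8.21% at 100 µM, and 18.2 and 19.8% at 1000 µM. The mitochondrial ribosomal protein genes also number 78 here, and 39 of them were higher and 6 lower at 100 µM (median 0.30), and 30 higher and 18 lower at 1000 µM (median 0.13). With the set term 13 were higher and 1 lower at 100 µM, and 19 higher and 16 lower at 1000 µM. Between 1000 and 100 µM 5 were higher and 28 lower (median -0.16; 21.8% of all features higher and 22.3% lower), where the cytosolic genes had 2 and 4. MRPL54 was higher by 2.15 ± 0.17 at 1000 µM (edgeR adjusted p = 2.405e-09) and by 1.855 with the set term, and MRPL58 by 1.69 ± 0.13 and 1.44. MRPL17 was lower (-1.13 ± 0.09, or -1.19 with the term), as was MRPS7 (-1.07 ± 0.09, or -0.76). Of 42 ribosome biogenesis factors 18 were higher and 8 lower at 1000 µM, and 18 higher and 3 lower with the set term (median 0.25 against -0.03 over all features). MRTO4, which prepares the site of the stalk on the pre-60S particle, rose from 33.1 ± 3.5 to 95.6 ± 4.3 CPM at 1000 µM (SD, n = 3), 1.53 ± 0.08, and RIOK2, a kinase of pre-40S maturation, from 8.42 ± 1.59 to 30.15 ± 0.10 CPM, 1.845 ± 0.119, and both passed also with the set term. LTV1, a factor of pre-40S assembly, was lower (-0.99 ± 0.11) and passed with the set term at -0.44, while NCL, the nucleolar protein nucleolin, was lower (-0.53 ± 0.09) and had -0.06 with the term.

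RNA polymerase I makes the large rRNA precursor. The counts at 1000 µM that follow stand against the same shares of all features, 28.5% higher and 29.1% lower, or 18.2 and 19.8% with the set term. Of 14 subunits and factors 8 were higher and 1 lower at 1000 µM, and 6 and 0 with the set term, POLR1B by 0.82 ± 0.09 and 0.71, and POLR1H, a small subunit of the polymerase, by 2.72 ± 0.23 and 1.83. Among 22 translation factors and other messages with a known TOP motif 7 were higher and 3 lower at 1000 µM, and 8 and 1 with the set term, with a median of 0.07, or 0.21 with the term. EIF4A2, an RNA helicase of initiation, went from 150 ± 16 to 486 ± 60 CPM, 1.70 ± 0.09 in both fits. EIF2S3, a subunit of the factor that carries the initiator tRNA, was higher by 0.82 ± 0.10 and 0.70. EIF3D was lower (-0.81 ± 0.15) and had -0.05 with the set term. Of 19 genes that control translation of TOP messages 9 were higher and 5 lower at 1000 µM, and 6 and 5 with the set term. DEPTOR, an inhibitor within mTOR complexes, fell from 3.12 ± 0.32 to 0.593 ± 0.050 CPM (-2.38 ± 0.17, edgeR adjusted p = 6.24e-10). TSC1 was higher by 0.46 ± 0.08 and EIF4EBP2, a repressor of cap-dependent initiation, by 0.50 ± 0.07, and all 3 passed with the set term. EIF2AK4, the kinase GCN2 that senses uncharged tRNA, was lower (-0.74 ± 0.08), also with the term. LARP1 was higher at 100 µM by 0.41 ± 0.10 and did not pass there with the set term (adjusted p = 0.0713).

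The table holds 8 paralogs of members, and 7 of them passed the filter. RPL7L1, which acts in pre-60S assembly and is no copy of the ribosome's RPL7, rose from 189 ± 4 CPM to 272 ± 17 at 100 µM and 365 ± 17 at 1000 µM (SD, n = 3), 0.95 ± 0.07 and with the set term 0.92 at the higher dose. RPL22L1, a variant that can replace RPL22, rose from 9.45 ± 2.64 to 28.2 ± 5.8 CPM, 1.58 ± 0.24, and had 0.88 with the set term, which did not pass (adjusted p = 0.05374). Of the read-through genes that span a member, RPS10-NUDT3 was higher at 100 µM (0.89 ± 0.32) and RPL36A-HNRNPH2 at 1000 µM (0.53 ± 0.19), and neither passed with the set term.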

How the data were processed

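Read counts per feature were used for 21 HepG2 libraries, 3 per caffeine group. Per the labels' protocols, poly(dT) beads selected the RNA and SmartScribe reverse transcriptase made the cDNA. The authors deposited raw counts, whole numbers without normalization. The submitters' processing notes name HISAT2, DESeq2 and GRCh38, with no role or version, and the counting tool, annotation and use of strand are not given in the sources used here. The table has 21 more per-sample columns, not used here. The labels call the replicates biological without naming separate cultures, so p-values measure the spread between these samples. Totals were 23502519 to 44815552 counts per library.

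Features were filtered with filterByExpr, TMM-scaled and tested with the quasi-likelihood test of edgeR 4.0.16 under R 4.3.3, in 1 fit over all libraries, 2-sided, with Benjamini-Hochberg adjustment over 17951 features and a threshold of 0.05. The SE is the absolute log2 fold change over the square root of F. A further fit had the library set as a term. Sets came from clustering 13 mitochondrial mRNAs (mean silhouette 0.571 for 3 clusters). DESeq2 1.42.0 and limma-voom (limma 3.58.1) were alternatives, with other scalings, filters and left-out libraries. A prior count of 2 entered log2 CPM. The test was checked on simulated data.

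Symbols, mRNA lengths, GC and shared 50-base stretches came from GENCODE 29, whose versions equal those of 66.4% of the Ensembl identifiers. Start windows came from RefSeq (GRCh38.p14) and were matched by symbol. The rule for named members was: 18 genes of known role, for each contrast the 3 largest called rises and falls (with under 10 calls, up to 5 by p), the 3 steepest slopes each way, the 3 highest and lowest per kb and the most variable. For other lists it was up to 2 called genes a direction at 100 and 1000 µM, and for pseudogenes the 3 of highest level. RPL12, RPL18, RPL21, RPL22, RPL23, RPL23A, RPL28, RPL31, RPL36, RPS7, RPS12, RPS21 and RPS28 were named after their values were seen. The members and all lists were chosen with earlier results of these data known. Single values of a few members are not reported here, although all counts and tests include them.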

Additional observations from a re-analysis of the deposited data

How the results depend on the processing

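Counts below are members passing the edgeR test. When the set entered the model the 0.01 µM dose gave 7, 1 µM gave 2, 10 µM gave 0, 100 µM gave 1 and 1000 µM gave 10, the contrast of 1000 with 100 µM gave 11, the slope 1 and the joint test 32. Of all members called without the term, 6 at 10 µM, 16 at 100 µM, 8 at 1000 µM and 15 for the slope had the opposite sign with it. Among 65 called results followed for named genes, which are not every call on them, the term turned the sign of 20. At 10 µM these were RPLP1 (-0.14), RPLP2 (-0.18), RPS27A (-0.23), RPS12 (-0.23), RPL9 (-0.30) and RPL36 (-0.11). At 100 µM they were RPLP1 (-0.096), RPLP2 (-0.16), RPS27A (-0.023), RPS12 (-0.28), RPS21 (-0.67) and RPL36A (0.55), and at 1000 µM RPLP1 (-0.099), RPLP2 (-0.18), RPS19 (-0.32), RPS3 (-0.15) and RPS15 (0.11). Per dose step they were RPLP1 (-0.014), RPL36A (0.16) and RPS15 (0.034). Of the other results 33 lost the call with the term and 12 kept it. The DESeq2 Wald test called 6 (0.01 µM), 5 (1 µM) and 23 (10 µM, against 17.8% of all features). A fit on the control and 10 µM alone called 34 (22% of all features). Between 1000 and 100 µM the count was 3 without a filter (19.7% of all features), 3 in a fit on the 2 doses (33.1%) and 39 within set B, and between 1000 and 10 µM it was 53 within set B. The set B fits and the contrast of 1000 with 10 µM were chosen after seeing the data. As a share of nuclear counts the family differed by 0.263 percentage points at 10 µM. Why these values moved was not tested. The other scalings, filters and limma-voom left each count within 1.5 times its value. Leaving out 1 library at a time left 0 calls at the 2 lowest doses and gave 0 to 2 for 1 µM, 4 to 23 for 10 µM, 26 to 48 for 100 µM, 32 to 46 for 1000 µM, 2 to 21 for 1000 against 100 µM, 46 to 59 for the slope and 51 to 70 for the joint test, where the share of all features ran over 5.63 to 19.1%, 38.6 to 49.4%, 50.4 to 59.4%, 34.3 to 50.7%, 49.8 to 57.1% and 67.4 to 76.9% from 10 µM on. The same exercise put the family share difference, in percentage points, at 0.475 to 0.7825 for 10 µM, 0.766 to 1.142 for 100 µM and 0.8095 to 1.117 for 1000 µM. Over all alternatives for those 65 results, 1818 values kept direction and side of the threshold, 189 lost the call and the 20 above turned. The replicate block gave 0, 0, 0, 18, 36 and 43 calls from the lowest to the highest dose, 5 between 1000 and 100 µM, 52 for the slope and 58 across groups, against 0, 0, 0, 12.7, 45.1, 56.6, 42.7, 53.3 and 71.7% of all features. Same-numbered libraries correlated at -0.108 to 0.152 over 21 pairs of groups, 1 of them over 0.1, so the numbers were not taken to pair samples.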
